A study of Mus musculus with 9 samples.

Results

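The miR-106b/93/25 cluster is a set of 3 microRNA hairpins that lie one after another in an intron of Mcm7, which encodes a subunit of the replicative DNA helicase. Its members were taken by name. They were the mouse rows mmu-miR-106b-5p, mmu-miR-106b-3p, mmu-miR-93-5p, mmu-miR-93-3p and mmu-miR-25-3p (written without the prefix from here on), 5 of 1129 rows in a table of read counts per miRNA, and all 5 were found. A further row of the same locus, miR-25-5p, is the opposite arm of the miR-25 hairpin and held between 0 and 7 counts per library.

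Small RNA was sequenced from the skin of adult female C57BL/6 mice, an inbred laboratory strain, aged 6 months, whose backs had been wounded with an 8 mm punch. The 9 libraries form 3 groups of 3. The first is skin of a diabetic mouse model, the second is skin from the wound edge at day 7, and the last is the skin removed at wounding (day 0). No diabetic model is named for the day 7 and day 0 groups. How diabetes was induced is not given in the labels used here. The diabetic samples are titled T7, their columns are named T0 and their treatment text describes skin removed at wounding, so their day of collection is not settled. For this group the diabetic model and a difference in time cannot be told apart. The labels speak of mice divided among 3 groups but tie no sample to an animal, so the p-values cover only how far these samples spread, which may be partly technical.

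MicroRNAs are cut from a hairpin into a duplex of 2 arms, named 5p and 3p. One arm is usually loaded into Argonaute as the guide and the other is mostly degraded. A guide recognises target mRNAs mainly through its seed, bases 2 to 8. The miR-106b/93/25 cluster is a paralog of the miR-17/92 cluster. It is transcribed with Mcm7 under E2F control in proliferating cells, and in human tumour cells its members repress the cell-cycle inhibitor p21 and the pro-apoptotic protein BIM, which blunts the TGF-beta response.

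The hairpins are shown because the arms of miR-106b and of miR-93 are compared below. Sequences are those of RefSeq on GRCm38.p6, minus strand, 5′ to 3′, with both mature arms in capitals. The submitters' build is mm9, so these coordinates are not those of their files. The hairpins occupy chr5:138165737-138165818 for Mir106b, chr5:138165523-138165610 for Mir93 and chr5:138165321-138165404 for Mir25. All 3 fall in intron 13 of the 15-exon transcript Mcm7-201 in the GENCODE annotation of GRCm38, with 126 bases between Mir106b and Mir93 and 118 between Mir93 and Mir25.
Mir106b: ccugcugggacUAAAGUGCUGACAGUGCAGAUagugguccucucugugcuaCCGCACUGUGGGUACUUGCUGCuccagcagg
Mir93: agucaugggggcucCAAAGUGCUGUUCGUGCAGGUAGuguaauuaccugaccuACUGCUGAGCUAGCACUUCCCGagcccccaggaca
Mir25: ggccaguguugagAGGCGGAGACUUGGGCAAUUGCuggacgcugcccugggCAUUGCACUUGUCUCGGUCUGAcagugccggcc

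The mature rows are given next with the seed in capitals, beside paralogs from the miR-17/92 cluster that share it. miR-106b-5p and miR-93-5p carry the seed AAAGUGC, and miR-25-3p carries AUUGCAC. The opposite arms miR-106b-3p and miR-93-3p each have a seed that no other row of the table carries, among 936 rows matched to RefSeq by name.
miR-106b-5p: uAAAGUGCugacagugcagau
miR-93-5p: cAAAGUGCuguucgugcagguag
miR-17-5p: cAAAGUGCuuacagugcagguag
miR-20a-5p: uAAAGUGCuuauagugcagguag
miR-25-3p: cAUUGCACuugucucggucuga
miR-92a-3p: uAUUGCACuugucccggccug
miR-106b-3p: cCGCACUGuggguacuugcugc
miR-93-3p: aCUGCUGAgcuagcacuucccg

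Past the seed the family members stay close. miR-93-5p is 3 edits (substitutions, insertions or deletions) from miR-17-5p and 4 from miR-20a-5p, miR-106b-5p is 5 from either, and miR-25-3p is 4 from miR-92a-3p. How reads that match several of them were assigned is not given in the sources used here, so small differences between these rows are uncertain.

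Library totals ranged from 2537167 to 5453539 counts. The 5 rows together took 0.268% ± 0.0820 of counts in the diabetic group, 0.150% ± 0.00654 at day 7 and 0.184% ± 0.0111 at day 0 (SD, n = 3 each). These shares are of unscaled totals. After the TMM scaling explained below, the same sums averaged 2213 ± 355, 1966 ± 103 and 1667 ± 156 CPM in that order. On that scale the day 7 mean was above the day 0 mean, so their order depends on the scaling. Keratinocyte and epithelial miRNAs, such as miR-203-3p and miR-205-5p, were abundant, with sums between 57161 and 88886 CPM over the 9 libraries. The liver miRNA miR-122-5p stood at 2.87 to 3.13 CPM in the 3 libraries numbered 2 and at 55.1 to 171 CPM in the other 6. By this row alone, the libraries numbered 2 stand apart in every group. Calls are also given without them.

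Levels are given in CPM, each count as a share of the library total on the usual per-1e+06 scale after scaling by TMM, a method that sets a typical miRNA to no change. CPM compares libraries for 1 miRNA. Between miRNAs it is also shaped by how well each sequence takes the adaptors, so the order of the members is a description. miR-93-5p and miR-25-3p were the main products, with 44.1% and 40.8% of the cluster's counts over all libraries. miR-106b-5p gave 8.83%, miR-106b-3p 6.06% and miR-93-3p 0.205%.

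The row that differed between groups by the test was miR-106b-5p, the guide arm of the first hairpin. It was at 214, 263 and 247 CPM in diabetic replicates 1, 2 and 3, at 119, 115 and 122 CPM at day 7, and at 106, 159 and 165 CPM at day 0. The 3 diabetic libraries were the highest of the 9. The day 7 values lay close together and inside the day 0 range.

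Against day 7, miR-106b-5p rose 2.03-fold in the diabetic group (log2 fold change 1.02 with an SE of 0.20, 3 libraries a group, adjusted p = 0.00452 by edgeR). It was the one member of 5 that passed, an adjusted p under 0.05, while 19.9% of all 447 tested miRNAs passed in that comparison 7.83% as higher and 12.1% as lower. Ranges with the diabetic group wholly above day 7 were found for 17.4% of all tested miRNAs. The call held in 18 of 19 alternatives. It was lost without the 3 libraries numbered 2, where the log2 fold change was 0.92 and the edgeR adjusted p was 0.144. In that smaller fit 1.16% of 430 tested miRNAs passed.

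Against day 0, miR-106b-5p had a log2 fold change of 0.75 ± 0.20 in the diabetic group and did not pass (adjusted p = 0.228, edgeR, n = 3 per group). Its adjusted p ran from 0.0537 to 0.984 over the 19 alternatives. Non-overlapping ranges with the diabetic group higher were found for 8.28% of all tested miRNAs. At day 7 against day 0 its log2 fold change was -0.27 ± 0.20 (adjusted p = 0.416, edgeR). With scaling by total counts alone it was lower at day 7 by the test, at -0.79 (adjusted p = 0.0191, edgeR). That scaling moves the median of all tested miRNAs to -0.46, from 0.08 with TMM. Relative to these medians, miR-106b-5p stood at -0.32 with total counts and -0.36 with TMM.

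The opposite arm of the same hairpin, miR-106b-3p, did not follow. It was at 149, 124 and 110.0 CPM in the diabetic libraries, at 142, 117 and 134 CPM at day 7 and at 71.9, 110.2 and 125 CPM at day 0. The 3 groups overlapped throughout. Its log2 fold change was -0.04 ± 0.23 for the diabetic group against day 7, 0.32 ± 0.23 for the diabetic group against day 0 and 0.36 ± 0.23 for day 7 against day 0. None passed (edgeR adjusted p = 0.943, 0.731 and 0.346, n = 3 per group).

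**Figure D1:**
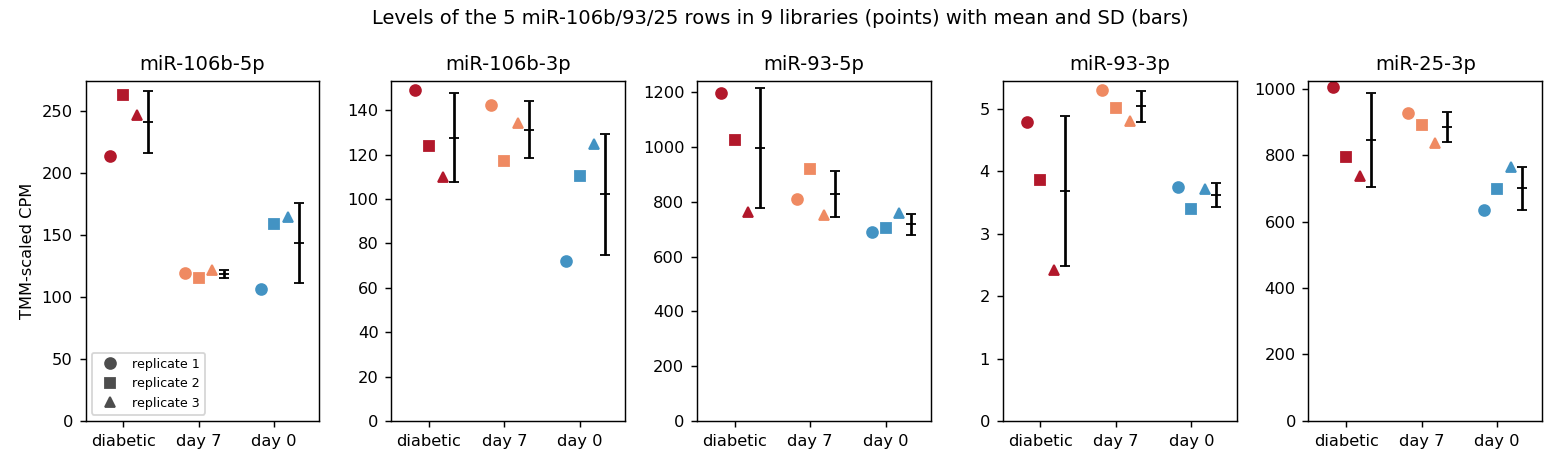
TMM-scaled CPM of the 5 cluster rows (y axes, linear from 0) in the diabetic, day 7 and day 0 libraries, with 1 point per library, marker shape for the replicate number, and black bars for the mean and SD of 3. The 3 diabetic libraries of miR-106b-5p sit between 214 and 263 CPM, above all 6 others, while miR-106b-3p overlaps across the groups.

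miR-93-5p, the guide arm of the middle hairpin, was at 1196, 1027 and 763 CPM in diabetic replicates 1, 2 and 3, at 811, 919 and 752 CPM at day 7 and at 690.1, 703 and 761 CPM at day 0. The lowest diabetic library exceeded the highest day 0 library by a small margin and lay inside the day 7 range. Its log2 fold change was 0.47 ± 0.17 for the diabetic group against day 0 (adjusted p = 0.463, edgeR, n = 3 per group). It was 0.27 ± 0.17 for the diabetic group against day 7 (adjusted p = 0.301, edgeR) and 0.20 ± 0.17 for day 7 against day 0 (adjusted p = 0.458, edgeR).

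miR-25-3p, the guide of the last hairpin, was at 1004, 793 and 737 CPM in the diabetic libraries, at 925, 890.1 and 836 CPM at day 7 and at 635, 699 and 765 CPM at day 0. All 3 day 7 libraries lay above all 3 day 0 libraries, as did 18.3% of all tested miRNAs. The diabetic libraries ran from inside the day 0 range to above the day 7 range. Its log2 fold change was 0.34 ± 0.15 for day 7 against day 0, with an unadjusted p of 0.0464 and an adjusted p of 0.167 (edgeR, n = 3 per group). Against day 0 and day 7 the diabetic group gave 0.27 ± 0.15 and -0.07 ± 0.15 (adjusted p = 0.679 and 0.783, edgeR).

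miR-93-3p, the opposite arm of the middle hairpin, was scarce. It had 35, 21 and 7 counts in the diabetic libraries, 18, 15 and 10 at day 7 and 15, 19 and 11 at day 0. The exact 95% Poisson interval of the lowest count ran from 2.81 to 14.4, and such intervals cover counting error only. In CPM it averaged 3.69 ± 1.20 in the diabetic group, 5.04 ± 0.247 at day 7 and 3.62 ± 0.191 at day 0 (SD, n = 3 each). All 3 diabetic libraries lay below all day 7 libraries, as did 20.8% of all tested miRNAs. No comparison passed (edgeR adjusted p from 0.399 to 0.950). The partner arm miR-25-5p was left out by the low-count filter, with 7, 6 and 0 counts in the diabetic libraries, 7, 2 and 1 at day 7 and 6, 3 and 1 at day 0.

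Counted over the cluster, 0 of 5 members passed at day 7 against day 0, where 12.8% of all tested miRNAs passed with edgeR, 8.05% as higher and 4.70% as lower. There 1 member had an unadjusted p under 0.05, beside 28.2% of all tested. DESeq2 called 0 members and 15.7% of all tested, and limma on TPM called 1 member and 24.4%. For the diabetic group against day 0, 0 of 5 passed and 0% of all tested miRNAs passed (edgeR). In that comparison 2 members had an unadjusted p under 0.05, beside 8.95% of all tested. DESeq2 called 0 members and 1.12% of all tested, and limma on TPM 0 and 0.224%. For the diabetic group against day 7, 1 member had an unadjusted p under 0.05, beside 34.9% of all tested. There DESeq2 called 1 member and 22.8% of all tested, and limma on TPM 2 and 43.2%. Without the libraries numbered 2, edgeR called 0 members in each comparison, beside 0.233% of all tested at day 7 against day 0. The median log2 fold change of the 5 was 0.34 at day 7 against day 0, beside 0.08 over all 447 tested. It was 0.32 for the diabetic group against day 0, beside 0.04, and -0.04 for the diabetic group against day 7, beside -0.02. The 3 comparisons share libraries, so these medians are not independent of each other.

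By mean CPM, miR-106b-5p and miR-93-5p were highest in the diabetic group, and the other 3 rows were highest at day 7. That split depends on TMM. As a share of unscaled totals, the mean of every member was highest in the diabetic group. Of the 15 steps between groups, 1 passed the test, that of miR-106b-5p between the diabetic group and day 7. The other 14 did not pass. With total-count scaling miR-93-5p (0.95, adjusted p = 0.00965, edgeR) and miR-25-3p (0.61, adjusted p = 0.0359, edgeR) were also higher in the diabetic group than at day 7, as part of 44.3% of all tested miRNAs that then passed. The median of all tested miRNAs in this comparison was then 0.61, against which miR-106b-5p stood 1.05 higher, miR-93-5p 0.34 higher and miR-25-3p level. At day 7 against day 0, 29.8% passed with that scaling, with a median of -0.46.

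**Figure D2:**
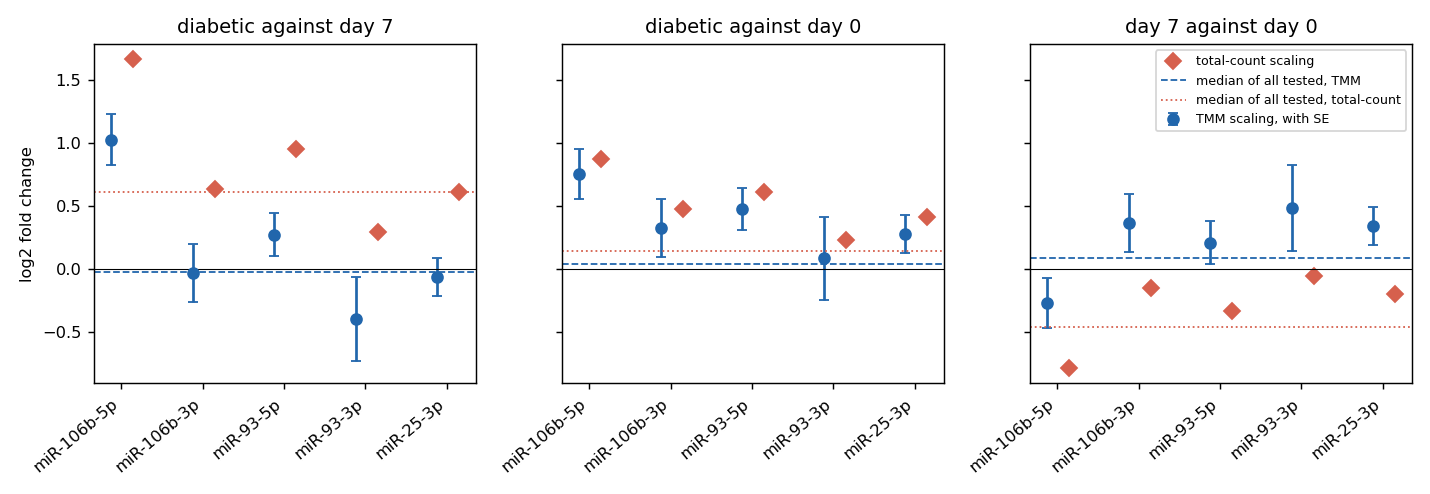
log2 fold change (y axis) of the 5 rows in the 3 comparisons, with TMM scaling (circles, bars are SE) and total-count scaling (diamonds), and lines for the median of all tested miRNAs under each. Total counts move the median from -0.02 to 0.61 for the diabetic group against day 7, and miR-106b-5p stays 1.05 above it under either scaling.

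Because library scaling matters here, rows were also set against each other inside each library, where no scaling enters. The ratio of miR-106b-3p to miR-106b-5p counts was 0.698, 0.471 and 0.446 in diabetic replicates 1, 2 and 3. It was 1.20, 1.02 and 1.10 at day 7 and 0.676, 0.693 and 0.757 at day 0. The 3p arm thus had more counts than the 5p arm in every day 7 library and in none of the other 6. Counts of different sequences do not settle which arm was more abundant, since adaptor uptake differs between them. Diabetic replicate 1 lay among the day 0 libraries, and the other two diabetic libraries lay below them.

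On the log2 scale the miR-106b arm ratio differed by -1.06 between the diabetic group and day 7, at -0.92 ± 0.35 and 0.14 ± 0.12 (SD, n = 3 each). The difference was 0.64 for day 7 against day 0, at 0.14 ± 0.12 and -0.50 ± 0.086. For both the exact two-sided permutation p was 0.1, the smallest that 3 against 3 allows, and 0.21 after adjustment over 21 ratio tests. Between the diabetic group and day 0 the difference was -0.42 (exact permutation p = 0.3).

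The arms of miR-93 were ordered alike, on few 3p reads. The ratio of miR-93-3p to miR-93-5p was 0.00406, 0.00386 and 0.00339 in the diabetic libraries, 0.00672, 0.00564 and 0.00672 at day 7 and 0.00560, 0.00497 and 0.00512 at day 0. The 3 groups did not overlap, but the margin between day 7 and day 0 was only 0.00564 against 0.00560. Day 7 replicate 2 and day 0 replicate 1, which set that margin, each had 15 miR-93-3p counts. The log2 differences were -0.75 for the diabetic group against day 7, -0.47 for the diabetic group against day 0 and 0.28 for day 7 against day 0. Each had an exact permutation p of 0.1, the smallest possible, and an adjusted p of 0.21.

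Arm ratios that part between groups were common in these libraries. Of 127 hairpins with both arms tested, 35.4% had non-overlapping 3p/5p ratios between the diabetic group and day 7, 20.5% between the diabetic group and day 0 and 22.8% between day 7 and day 0. By size of the difference between the diabetic group and day 7, miR-106b ranked 18 and miR-93 ranked 36 of the 127. Ranked by the day 7 to day 0 difference, miR-106b was at 34 and miR-93 at 69. By the step from day 0 to diabetic skin, miR-106b stood at 37 and miR-93 at 34. The background over all hairpins was added after the members' ratios had been seen.

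Between guides, the ratio of miR-93-5p to miR-106b-5p was 5.59, 3.91 and 3.09 in the diabetic libraries, 6.80, 7.98 and 6.16 at day 7 and 6.48, 4.41 and 4.62 at day 0. It was lower in all diabetic libraries than at day 7 (log2 difference -0.77, exact permutation p = 0.1, the smallest possible, adjusted 0.21). The other comparisons of this ratio overlapped. The ratio of miR-25-3p to miR-93-5p was 0.839, 0.772 and 0.967 in the diabetic libraries, 1.14, 0.969 and 1.11 at day 7 and 0.921, 0.995 and 1.01 at day 0. Its log2 difference was -0.32 for the diabetic group against day 7 (exact permutation p = 0.1, adjusted 0.21). The highest diabetic library, at 0.967, was just under the lowest day 7 library, at 0.969. These ratios reuse the counts tested above, and how often ratios of unrelated rows separate the groups was not computed.

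**Figure D3:**
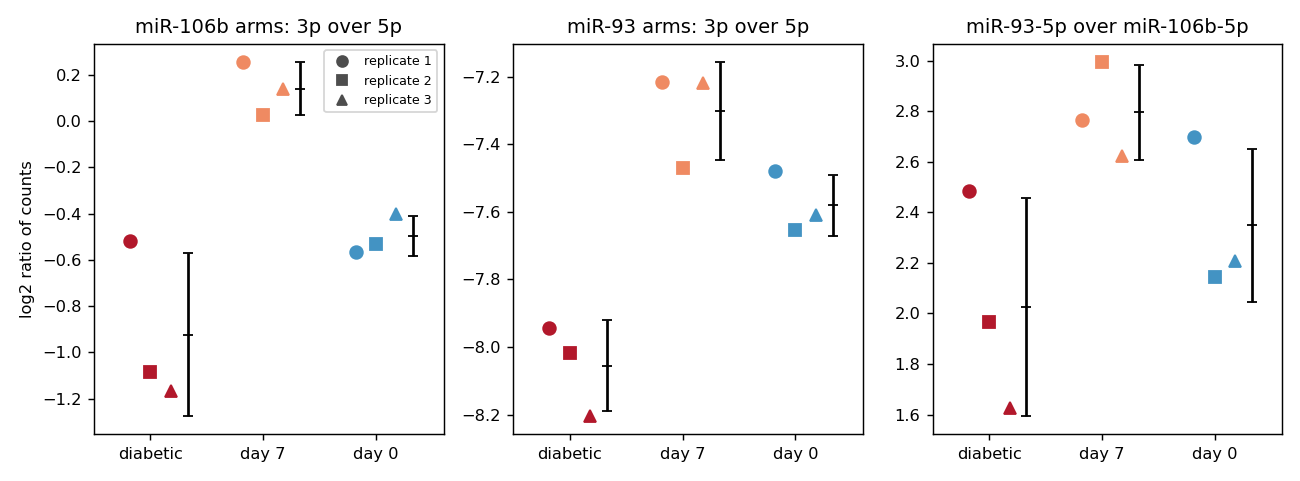
log2 ratios of counts within a library (y axes) for both arms of miR-106b, both arms of miR-93, and miR-93-5p over miR-106b-5p, with 1 point per library by group and bars for the mean and SD of 3. All day 7 libraries lie above 0 for miR-106b, with more 3p than 5p counts, and all diabetic and day 0 libraries lie below 0.

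The paralog clusters, miR-17/92 and the one of miR-106a, which are known to promote proliferation, were described by a list of 14 rows, all in the table, of which 9 were tested. At day 7 against day 0, 1 was higher, 0 were lower and 8 did not pass, with a median log2 fold change of 0.26. In the diabetic group against day 0, 0 of 9 passed with edgeR, DESeq2 and limma, 3 had an unadjusted p under 0.05, and the median was 0.37. For the diabetic group against day 7, 0 were higher and 1 was lower, with a median of 0.01. The row that passed in both was miR-19a-3p. Total counts and limma on TPM each called 4 other rows for the diabetic group against day 7, miR-17-3p, miR-17-5p, miR-20b-5p and miR-92a-3p, all higher. At day 7 against day 0 each called 1, miR-20b-5p, as lower. Neither called miR-19a-3p. It was at 19.9, 23.2 and 14.8 CPM in the diabetic libraries, at 37.1, 61.9 and 28.9 CPM at day 7 and at 20.7, 14.0 and 11.2 CPM at day 0. Its log2 fold change was 1.48 ± 0.34 for day 7 against day 0 (adjusted p = 0.0178, edgeR) and -1.14 ± 0.33 for the diabetic group against day 7 (adjusted p = 0.0326, edgeR). These calls held in 12 and 9 of 19 alternatives, with adjusted p up to 0.352 and 0.362, and neither was made without the libraries numbered 2.

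The seed relatives with most counts were miR-20a-5p, miR-92a-3p and miR-17-5p. miR-20a-5p averaged 877 ± 251 CPM in the diabetic group, 881 ± 234 at day 7 and 597 ± 11.7 at day 0 (SD, n = 3 each). miR-17-5p averaged 409 ± 81.8, 361 ± 92.6 and 302 ± 7.53 CPM in the diabetic group, at day 7 and at day 0, and miR-92a-3p 835 ± 230, 711 ± 40.9 and 645 ± 97.5 CPM. For the diabetic group against day 7 their log2 fold changes were -0.01 ± 0.23 for miR-20a-5p, 0.18 ± 0.21 for miR-17-5p and 0.23 ± 0.21 for miR-92a-3p, and none passed. None of the 3 tested relatives with the AAAGUGC seed, and none of the 4 with the AUUGCAC seed, passed in any of the 3 comparisons (edgeR). At an unadjusted p under 0.05 stood miR-20a-5p in both comparisons against day 0 (0.0338 for day 7 and 0.0354 for the diabetic group) and miR-32-5p for the diabetic group against day 7 (0.0211). DESeq2 called 1 of the 4 AUUGCAC relatives for the diabetic group against day 7. With total counts 2 of the 3 and 2 of the 4 passed there, beside the shifted median given above.

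Some ratios to the paralogs separated the diabetic group from day 7. They reuse the members' counts tested above, and how often ratios of unrelated rows separate these groups was not computed. miR-106b-5p over miR-17-5p was 0.449, 0.606 and 0.776 in the diabetic libraries, 0.347, 0.249 and 0.437 at day 7 and 0.362, 0.517 and 0.539 at day 0. All diabetic libraries lay above all day 7 libraries (log2 difference 0.83, exact permutation p = 0.1, the smallest possible, adjusted 0.21). The margin was small, 0.449 against 0.437, and the other comparisons overlapped. For miR-93-5p over miR-20a-5p the log2 differences were 0.27 for the diabetic group against day 7 and -0.33 for day 7 against day 0. Each had non-overlapping ranges and an exact permutation p of 0.1, adjusted 0.21. The lowest diabetic ratio, 1.053, was barely above the highest day 7 ratio, 1.050. The ratio of miR-25-3p to miR-92a-3p overlapped in all 3 comparisons, with log2 differences from -0.27 to 0.19 (exact permutation p from 0.3 to 0.7).

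**Figure D4:**
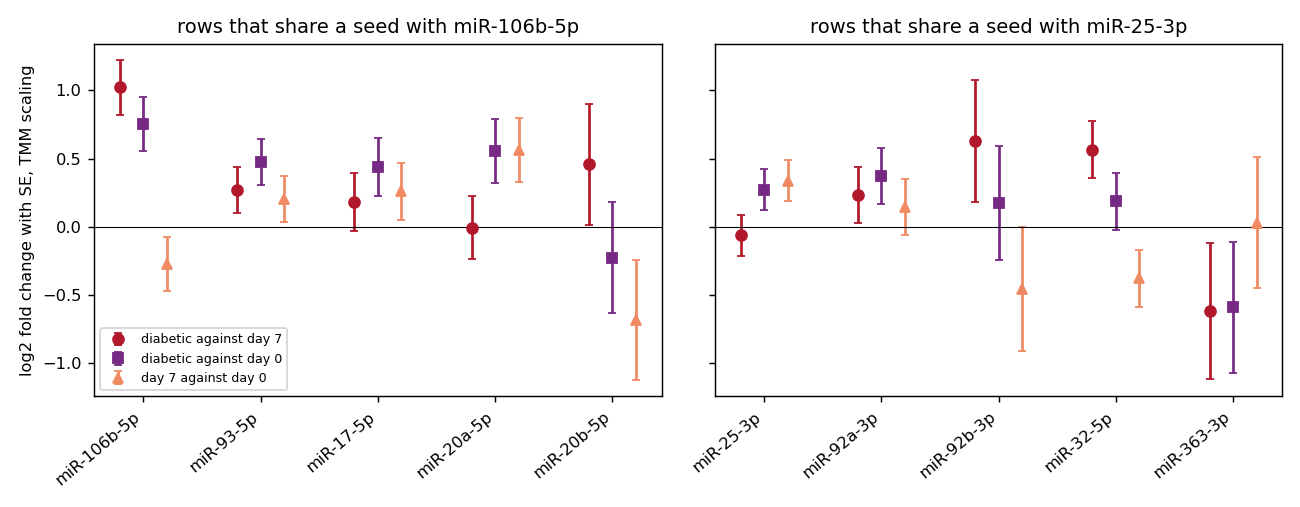
log2 fold change with SE (y axis, TMM scaling) in the 3 comparisons for the tested rows that share a seed with miR-106b-5p (left) and with miR-25-3p (right). miR-106b-5p has the highest value for the diabetic group against day 7 among the 10 rows drawn, 1.02, and miR-20a-5p with the same seed is at -0.01.

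Over the 9 libraries, log2 CPM of the 5 rows correlated unevenly. Pearson's r was 0.75 between miR-93-5p and miR-25-3p and 0.86 between miR-25-3p and miR-106b-3p, but 0.30 between the arms of miR-106b and 0.07 between miR-106b-5p and miR-25-3p. The libraries share scaling and group differences, so these values are descriptions. Among 305 other rows with a mean of at least 10 CPM, those most like miR-93-5p were miR-17-5p (r = 0.92), miR-20a-5p (0.87) and miR-374c-3p (0.85). Those most like miR-25-3p were miR-18a-5p (0.86), miR-455-5p (0.78) and miR-20a-5p (0.77). Both guides thus had miR-17/92 rows among their nearest.

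The rows most like miR-106b-5p were others, the let-7 relative miR-98-5p (r = 0.95), miR-676-3p (0.91) and miR-345-5p (0.90). Of the miR-17/92 rows, miR-17-3p was the nearest to it, at rank 7 of 305 (r = 0.85). Next came miR-92a-3p at rank 73 (0.45) and miR-17-5p at rank 97 (0.35), and miR-20a-5p was at rank 141 (0.12). miR-98-5p was at 547, 471 and 471 CPM in the diabetic libraries, at 208, 207 and 193 CPM at day 7 and at 182, 353 and 280 CPM at day 0. As for miR-106b-5p, the diabetic libraries were above all others, and day 0 replicate 1 was the lowest of its group. miR-98-5p was picked by correlation over these same libraries, so the shared order follows from that choice.

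**Figure D5:**
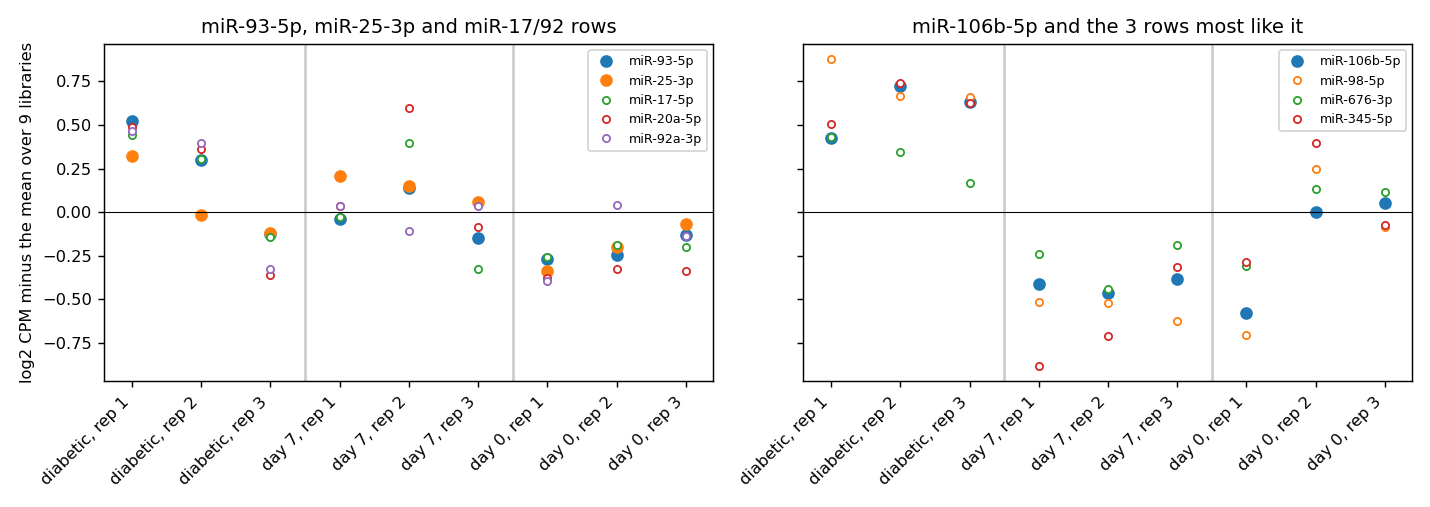
log2 CPM of each row minus its mean over the 9 libraries (y axis), by library, with filled points for cluster members and open points for other rows. On the left miR-93-5p, miR-25-3p and the miR-17/92 rows are high in diabetic replicate 1 and lower in replicate 3, and on the right miR-106b-5p and the 3 rows most like it are above 0 in all diabetic libraries and below 0 in all day 7 libraries.

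Within the diabetic group miR-93-5p, miR-25-3p, miR-106b-3p and miR-93-3p were all highest in replicate 1 and lowest in replicate 3, while miR-106b-5p was lowest in replicate 1. The sum of keratinocyte and epithelial miRNAs also fell, at 88886, 77566 and 62174 CPM in diabetic replicates 1, 2 and 3. Most of it was miR-203-3p, at 66282, 56560 and 42261 CPM, and miR-200b-3p and miR-200c-3p fell too. The rest of the list did not: miR-141-3p rose, at 155, 178 and 281 CPM, and miR-200a-3p was lowest in replicate 1. In replicate 2 miR-205-5p was lowest and miR-429-3p highest. Sums of striated muscle miRNAs (miR-1a-3p, miR-133a-3p, miR-133b-3p and miR-206-3p) rose from replicate 1 to replicate 3, at 30284, 76575 and 132624 CPM. So did the sums of fibroblast and smooth muscle miRNAs, at 79879, 92699 and 132085 CPM, and of endothelial miRNAs, at 5426, 6854 and 9965 CPM. The leukocyte sum rose too, at 777, 853 and 965 CPM, with both arms of miR-142a and miR-511-3p rising. The others in it did not rise steadily. miR-223-3p fell, at 86.2, 85.6 and 78.6 CPM, and miR-223-5p was lowest in replicate 3. In replicate 2 miR-150-5p was lowest, and miR-155-5p and miR-342-3p were highest. In the fibroblast and smooth muscle list, miR-143-3p made up most of the sum, and it and miR-145a-5p rose. There miR-199a-3p was lowest in replicate 3, at 8401, 8654 and 8253 CPM, and miR-199a-5p and miR-214-3p were lowest in replicate 2. The part of these markers in the spread of the cluster's rows was not tested.

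Some cell type markers differed between the diabetic group and day 7, as miR-106b-5p did. Some also differed between day 7 and day 0, where miR-106b-5p did not pass with edgeR and TMM. The 8 leukocyte miRNAs summed to 777 to 965 CPM in the diabetic group, 1812 to 2412 CPM at day 7 and 886 to 1133 CPM at day 0, with 6 of 8 lower by the test in diabetic skin than at day 7 and 6 of 8 higher at day 7 than at day 0. The 4 erythroid miRNAs summed to 712 to 1054, 1624 to 2875 and 694 to 1351 CPM in the diabetic, day 7 and day 0 groups, with 3 of 4 lower in diabetic skin than at day 7 and 2 of 4 higher at day 7 than at day 0. Of 7 keratinocyte and epithelial miRNAs, 3 were higher in the diabetic group than at day 7 and 3 were lower at day 7 than at day 0. For the diabetic group against day 7, total counts called 5 leukocyte, 0 erythroid and 7 epithelial markers, and at day 7 against day 0 they called 3, 0 and 6. Without the libraries numbered 2, the calls for the diabetic group against day 7 were 2 leukocyte, 0 erythroid and 0 epithelial markers, and at day 7 against day 0 there were 0 in each list. None of the striated muscle (4), fibroblast and smooth muscle (5), endothelial (2) and liver (1) markers passed in any comparison with edgeR and TMM. With total counts, 2 striated muscle, 3 fibroblast and smooth muscle and 1 endothelial marker were higher in diabetic skin than at day 7, and 4 fibroblast and smooth muscle markers were lower at day 7 than at day 0. DESeq2 called 1 of them for the diabetic group against day 7 and 1 at day 7 against day 0. At an unadjusted p under 0.05 stood 4 for the diabetic group against day 7, 2 for the diabetic group against day 0 and 2 for day 7 against day 0. No marker was at 0 in a whole group. In bulk skin, fewer cells of a type and less RNA per cell cannot be told apart, and the part of cell makeup in the miR-106b-5p difference was not tested.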

How the data were processed

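Adaptor-ligated small RNA libraries from 3 µg of total RNA were sequenced as single-end reads, per the labels' protocols. The authors deposited 1 table with a read count and a TPM value per miRNA and library, per the file headers. The deposited counts are whole numbers and not normalized. The deposited TPM values equal the count over the library total on a per-1e+06 scale, with no length term, as tested on the table. The submitters' processing notes name Bowtie, DESeq version 3.0.3 and build mm9 with no role. For trimming, mismatches and multi-matching reads, the settings were not given in the sources used here.

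Table columns were matched to samples by title, and the T0 columns to the T7 titles by letter and number. All 9 libraries entered 1 edgeR fit (version 4.0.16, under R 4.3.3) tested by quasi-likelihood, after TMM scaling and filterByExpr (minimum count 10, minimum total 15), which kept 447 of 1129 rows. P-values were adjusted by Benjamini-Hochberg over those 447, with calls under 0.05. SE came from the F statistic. CPM used TMM-scaled totals, and log2 CPM a prior count of 2. Ratios used a pseudocount of 0.5. Alternatives were DESeq2 1.42.0, limma 3.58.1 on log2(TPM + 1), other scalings and filters, a 2-group fit, a replicate block and leaving out libraries. The edgeR step was tested on simulated counts.

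Named rows were the members, miR-25-5p, listed paralogs, seed relatives, marker lists (leukocyte, erythroid, epithelial, muscle, fibroblast, endothelial, liver) and, for each of 3 guides, the 3 rows of at least 10 CPM with the highest Pearson's r. Members and lists were chosen with earlier results of these data known. Deviations from group means correlated in all 9 same-numbered pairs of libraries (0.102 to 0.484), which is over the limit of 0.1 set for treating equal numbers as pairs. The labels give no reason for pairing. Without the miR-122 rows 6 of 9 pairs exceeded it.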

Additional observations from a re-analysis of the deposited data

How the results depend on the processing

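Of 57 recomputed counts of members called, 52 were the same as reported, and of 282 recomputed fold changes 246 kept their direction and their side of the threshold. At day 7 against day 0 the count was 1 with total-count scaling and 1 with limma on TPM, against 0 reported. For the diabetic group against day 7 it was 3 with total-count scaling, 2 with limma on TPM and 0 without the libraries numbered 2 (chosen after seeing the data), against 1 reported. The replicate block gave 0, 0 and 1 in the 3 comparisons and changed no member's call.

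The log2 fold changes that turned over were all uncalled with TMM. At day 7 against day 0 they were, with total counts and with limma on TPM, -0.16 and -0.14 for miR-106b-3p, -0.34 and -0.34 for miR-93-5p, -0.061 and -0.050 for miR-93-3p, and -0.20 and -0.20 for miR-25-3p. Between the diabetic group and day 7 these same alternatives gave 0.63 and 0.59 for miR-106b-3p, 0.29 and 0.12 for miR-93-3p, and 0.61 and 0.56 for miR-25-3p. Upper-quartile scaling gave 0.072 for miR-106b-3p and 0.049 for miR-25-3p, no low-count filter gave 0.063 and 0.036, and DESeq2 gave 0.0040 for miR-106b-3p. Total counts moved the median of all tested miRNAs to -0.46 and 0.61 in these comparisons. Leaving out 1 library at a time, fold changes for the diabetic group against day 7 ran from -0.16 to 0.10 for miR-106b-3p and from -0.20 to 0.067 for miR-25-3p, and that of miR-93-3p against day 0 from -0.16 to 0.26. The diabetic-to-day 0 differences of log2 ratios ran from -0.14 to 0.0028 for miR-93-5p over miR-20a-5p and from -0.24 to 0.069 for miR-25-3p over miR-92a-3p. Of 147 recomputed ratio differences 145 kept their sign. The filter at a mean of 10 CPM left out miR-93-3p, so it has no value there. With 3 libraries a group and a common biological coefficient of variation of 27.8%, small fold changes could not be told from the spread, and miR-93-3p rests on 7 to 35 counts.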
